A study of Rattus norvegicus with 12 samples.

Results

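The 7 genes described here encode secreted modulators and receptors of the Wnt pathway in the rat heart: Sfrp1, Sfrp2, Sfrp4 and Dkk3, whose products are secreted, and the frizzled receptors Fzd1, Fzd2 and Fzd4. They were selected by gene symbol: every probe set that the platform annotation gives that single symbol was taken, which made 10 probe sets of 15923 on the array and 7 genes of 10412. Sfrp4, Dkk3 and Fzd4 each have a pair of probe sets, called the brighter and the dimmer one here by their mean signal. Of the 10 probe sets, 9 passed the filter on dim values and were tested. The dimmer Dkk3 probe set was above the 40th percentile of its array on 0 of 12 arrays and was not tested.

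Total RNA was measured on 12 arrays, 3 in each of 4 groups. In the 7 d ischaemia-reperfusion (IR) group the left anterior descending coronary artery (LAD) had been closed for 30 min and the heart was taken after 7 days of reperfusion, and the 7 d sham group had surgery without ligation and the same interval. The 2 d IR and 2 d sham groups were treated in the same ways and sampled at 2 days. No genotype, strain, sex or age is given in the sources used here, and the label of 1 array (7 d IR replicate 44) names the ventricle while the others name the heart. How the RNA was prepared is not given in the sources used here, so the p-values below measure the spread between these arrays, part of which may be technical.

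Wnt proteins are secreted lipid-modified ligands that bind the cysteine-rich domain of frizzled receptors, together with coreceptors such as Lrp6, and act through beta-catenin or through planar polarity and calcium branches. Secreted frizzled-related proteins carry a domain like that of the receptors and can bind Wnts outside the cell, and they have been described as both dampening and enhancing the signal. Dkk3 belongs to the Dickkopf family, whose classical members block the Lrp coreceptors, although Dkk3 itself is a divergent member. In the injured heart the pathway is known mostly from the healing wound and its fibroblasts, and a frizzled receptor was described in migrating myofibroblasts of rat infarcts.

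Promoter windows from RefSeq (build GRCr8) were available for 3 of the 7 genes, and they are shown because they cover a modulator that rose at 7 days (Sfrp2) and receptors whose changes did not pass the test (Fzd1 and Fzd4). Each window holds 250 bases before the annotated start of the gene in lower case and the 50 bases from the start in capitals, on the plus strand. The Sfrp2 window is chr2:171387286-171387585, the Fzd1 window is chr4:30264824-30265123 and the Fzd4 window is chr1:152692257-152692556.
Sfrp2: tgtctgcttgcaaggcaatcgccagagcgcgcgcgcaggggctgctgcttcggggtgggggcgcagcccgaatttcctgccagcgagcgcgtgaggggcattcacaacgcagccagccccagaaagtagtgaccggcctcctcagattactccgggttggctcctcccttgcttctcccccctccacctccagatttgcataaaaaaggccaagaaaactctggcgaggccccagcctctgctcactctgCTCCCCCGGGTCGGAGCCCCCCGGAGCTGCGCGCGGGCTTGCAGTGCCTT
Fzd1: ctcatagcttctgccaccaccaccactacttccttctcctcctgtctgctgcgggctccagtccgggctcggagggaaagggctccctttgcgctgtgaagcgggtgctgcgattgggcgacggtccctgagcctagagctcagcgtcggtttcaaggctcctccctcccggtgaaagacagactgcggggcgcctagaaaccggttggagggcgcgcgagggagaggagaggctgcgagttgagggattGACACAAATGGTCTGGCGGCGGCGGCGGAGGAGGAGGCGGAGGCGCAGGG
Fzd4: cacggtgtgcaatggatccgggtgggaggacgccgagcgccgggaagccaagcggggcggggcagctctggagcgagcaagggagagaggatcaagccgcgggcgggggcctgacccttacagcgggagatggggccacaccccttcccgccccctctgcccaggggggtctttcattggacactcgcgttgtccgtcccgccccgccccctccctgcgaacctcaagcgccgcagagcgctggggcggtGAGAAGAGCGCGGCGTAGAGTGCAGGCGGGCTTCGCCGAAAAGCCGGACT
Their GC content was 65.0% for Sfrp2, 65.3% for Fzd1 and 70.7% for Fzd4, against a median of 51.7% (quartiles 44.7% and 60.3%) over 33469 RefSeq rat promoter windows of this length. The core letters that TCF/LEF factors, the DNA-binding partners of beta-catenin, are known to bind were searched on both strands as CTTTGAA or CTTTGAT. None of the 3 windows holds them, while 2921 of the 33469 windows do (8.73%), which says only that these letters are not in these 300 bases.

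In the same build Sfrp2 lies on chr2:171387536-171395081, Sfrp4 on chr17:49974532-50026448, Sfrp1 on chr16:75278325-75316736 and Dkk3 on chr1:175672834-175715867. The receptor genes lie on chr10:88061988-88063898 (Fzd2), chr4:30265074-30269472 (Fzd1) and chr1:152692507-152701372 (Fzd4). The 7 genes thus sit on 6 chromosomes, and Dkk3 and Fzd4 share chromosome 1.

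Markers of heart muscle were present in every group: Myh6, the alpha myosin heavy chain, averaged 27220 ± 5060 in 7 d IR hearts and 47182 ± 7923 in 7 d sham hearts, and 32042 ± 7976 in 2 d IR hearts and 41967 ± 3851 in 2 d sham hearts (SD, n = 3 each). Signals are linear intensities that were scaled to a trimmed mean of 1500.4 to 1500.5 on each array, with array medians between 637.3 and 719.0. On the first principal component over the tested probe sets (39.0% of the variance), 2 d IR replicate 69 stood at 18.3 against -4.11 and 0.18 for the other arrays of its group. Likewise 7 d sham replicate 82 stood at -23.62 against -1.06 and -1.14 for the other 7 d sham arrays, and the values that moved most without these arrays are given beside the results. The ratio of 3' to 5' signal of Actb, a measure of RNA integrity, was 0.18 ± 0.06 in 7 d IR hearts and 0.58 ± 0.23 in 7 d sham hearts (log2, SD, n = 3 each; exact permutation test, two-sided p = 0.1, the smallest that 3 against 3 arrays allow). For Gapdh and hexokinase, and for all 3 genes at 2 days, the exact p lay between 0.2 and 0.8, and the part of RNA integrity in the values below was not tested.

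**Figure D1:**
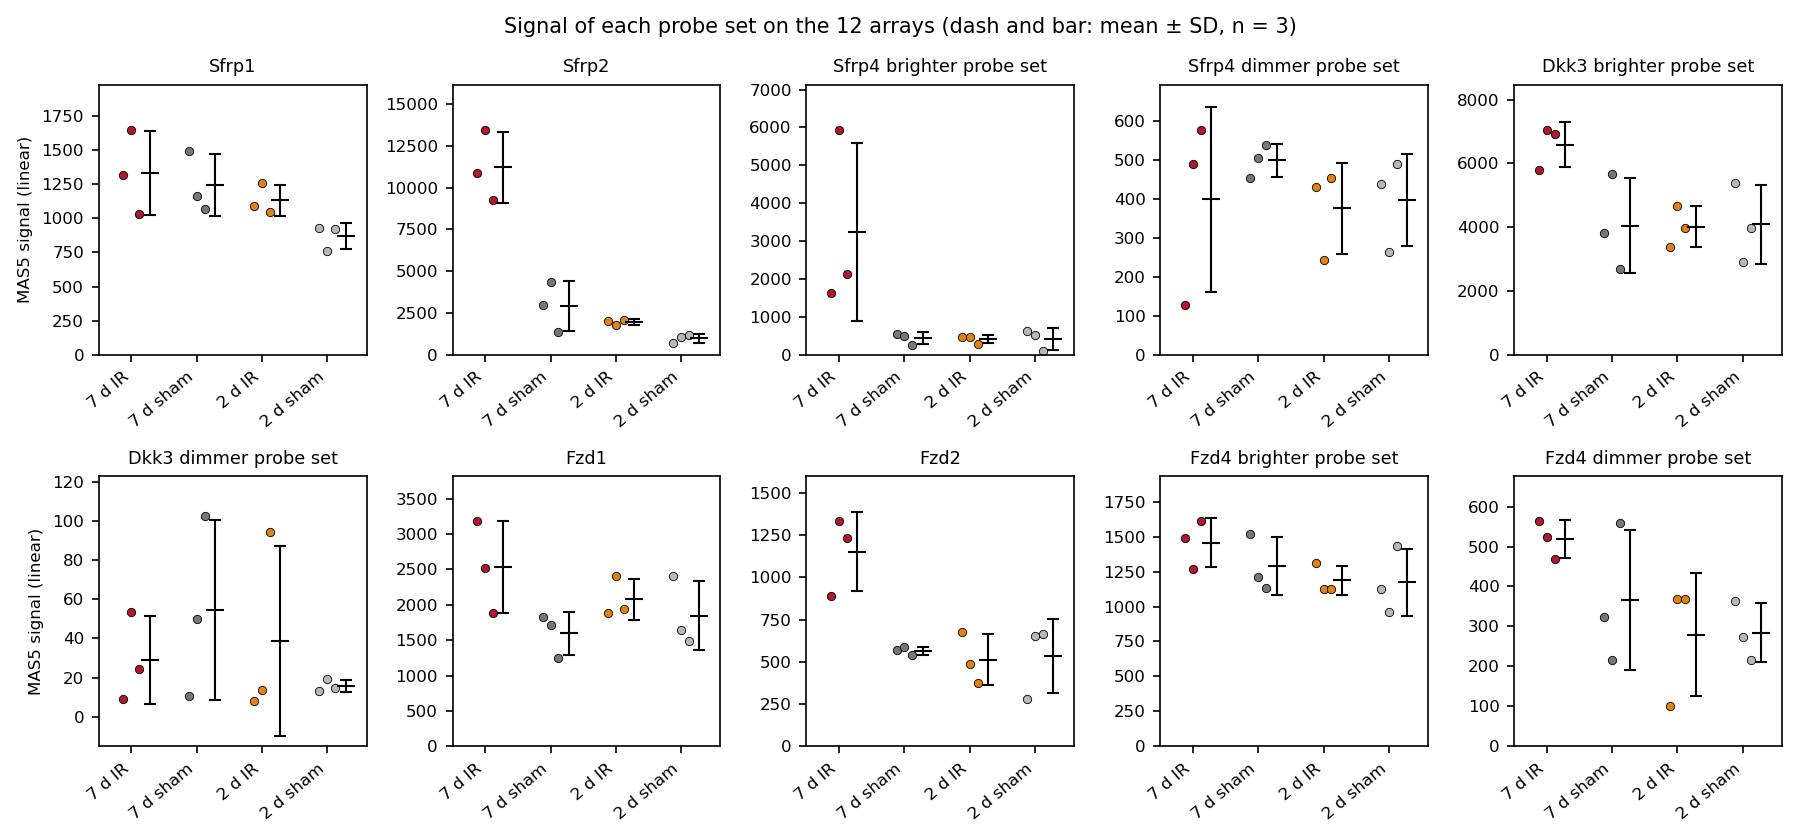
Signal (linear MAS5 intensity, vertical axis) of all 10 probe sets on each of the 12 arrays, by group on the horizontal axis; points are arrays, and dashes with bars are the group mean ± SD (n = 3). The 3 7 d IR arrays of Sfrp2, between 9284.8 and 13476.1, lie above every other array, as do those of the brighter Sfrp4 probe set and of Fzd2.

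Across the 7 genes, each taken by its brightest tested probe set, 3 rose in 7 d IR hearts relative to 7 d sham hearts, namely Sfrp2, Sfrp4 and Fzd2. None fell. The test was limma's moderated fit with Benjamini-Hochberg adjustment over all 10527 probe sets, and a gene was called at an adjusted p under 0.05. Over all 7720 genes tested, 6.40% were called higher at 7 days, and the 7 genes were chosen with earlier results of these data known. All 7 changes were positive, with a median of 0.73 on the log2 scale against 0.01 over all genes. Sfrp4 counts here by a probe set that is the brighter one through the 7 d IR arrays. Its mean log2 signal there was 11.54, against 9.12 for the dimmer one. In 7 d sham, 2 d IR and 2 d sham hearts it was 9.28, 9.24 and 9.11, against 9.44, 9.13 and 9.19. The choice thus rests on the group under test, and the dimmer Sfrp4 probe set changed by -0.32 at 7 days. At 2 days 0 of the 7 genes were called, against 2.62% of all genes, and their median change was 0.12 against 0.01 over all genes. An unadjusted p under 0.05 was found for 1 of the 7 genes then (Sfrp2), against 22.5% of all genes. Fold changes are on the log2(signal + 195) scale, which understates those of dim probe sets.

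Sfrp2, a secreted frizzled-related protein that in mice has been linked to collagen maturation as well as to Wnt binding, rose in 7 d IR hearts. Its signal was 10885.1, 13476.1 and 9284.8 on the 7 d IR arrays, against 3002.0, 4375.4 and 1389.0 on the 7 d sham arrays. All 7 d IR arrays were thus above all 7 d sham arrays, and the lowest sham value came from replicate 82. The group means were 11215 ± 2115 in 7 d IR hearts and 2922 ± 1495 in 7 d sham hearts (SD, n = 3 each), and the log2 change was 1.99 (SE 0.29, limma adjusted p = 0.00323), a 3.96-fold rise. The change was called under all 23 alternatives tried, with values between 1.56, when 7 d sham replicate 82 was left out, and 3.28, when the 2 d sham arrays were the control.

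On the 2 d arrays the Sfrp2 signal was 2046.6, 1777.2 and 2064.6 in IR hearts, against 687.3, 1078.7 and 1196.5 in 2 d sham hearts. The groups did not overlap, which was also so in this direction for 14.7% of all genes at that day. The log2 change of 0.89 (SE 0.29, limma adjusted p = 0.0988) did not pass the test. It passed when the fit held only the 2 d arrays (adjusted p = 0.0276) and without 7 d sham replicate 82 (adjusted p = 0.0207), it was 0.86 without 2 d IR replicate 69 (adjusted p = 0.329), and it was -0.40 when the 7 d sham arrays served as control.

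That last value goes with a difference between the sham groups themselves. Sfrp2 had higher signals on all 7 d sham arrays than on any 2 d sham array, a separation whose share over all genes was not computed. The log2 difference was 1.30 (SE 0.29), with an unadjusted p of 0.000456 and a limma adjusted p of 0.137. The difference was called with array weights (1.46, adjusted p = 0.0389) and without 7 d sham replicate 82 (1.72, adjusted p = 0.00132). Between the sham groups limma called 0 of the 7 genes, against 0.0777% of all genes, and the unadjusted p was under 0.05 for Sfrp2 and Sfrp1, against 9.69% of all genes. In order of level the 4 groups ran 7 d IR, 7 d sham, 2 d IR and 2 d sham, and only 7 d sham and 2 d IR had overlapping ranges.

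Sfrp4, a family member needed for normal bone shape in humans, had probe sets that disagreed. On the brighter probe set the signal was 1641.6, 5944.6 and 2135.4 in 7 d IR hearts, against 552.2, 497.5 and 265.0 in 7 d sham hearts. Every 7 d IR array was above every sham array, and replicate 47 alone was far above the other 7 d IR arrays. The log2 change was 2.26 (SE 0.42, limma adjusted p = 0.00816), a 4.80-fold rise, while the ratio of mean signals was 7.39. The change was 1.74 without replicate 47 (adjusted p = 0.028) and 2.05 without 7 d sham replicate 82 (adjusted p = 0.0441), and it was called under all 23 alternatives.

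On the dimmer Sfrp4 probe set the signal was 128.0, 489.4 and 577.7 in 7 d IR hearts, against 453.9, 503.7 and 537.4 in 7 d sham hearts. These groups overlapped, and the array with the lowest value was 7 d IR replicate 44, which was well above sham on the brighter probe set. The log2 change was -0.32 (SE 0.30, limma adjusted p = 0.527), and it was 0.07 without replicate 44. The log2 signals of the brighter and the dimmer Sfrp4 probe set had a correlation of -0.09 over the 12 arrays and of 0.11 within groups, given as a description of arrays that share their RNA. The dimmer probe set was above its array's 40th percentile on 5 of 12 arrays and the brighter one on 8 of 12, and which of them follows the Sfrp4 transcript was not tested. When the dimmest tested probe set stood for each gene, 2 of the 7, Sfrp2 and Fzd2, were called higher at 7 days, against 6.15% of all genes taken in this way.

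In the 2 d groups the brighter Sfrp4 probe set read 480.4, 481.7 and 284.4 in IR hearts, against 629.3, 524.8 and 90.9 in sham hearts. The ranges overlapped, and the log2 change was 0.12 (SE 0.42, limma adjusted p = 0.908). The dimmer Sfrp4 probe set changed by -0.06 (SE 0.30, adjusted p = 0.946). Among the 4 groups, only 7 d IR had a range of its own on the brighter probe set.

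Sfrp1, the third frizzled-related protein measured, had nearly the same signal in 7 d IR and 7 d sham hearts. The values were 1321.2, 1651.0 and 1035.3 on the 7 d IR arrays, against 1496.9, 1166.7 and 1068.0 on the 7 d sham arrays, with a log2 change of 0.08 (SE 0.16, limma adjusted p = 0.788). At 2 days the signal was 1089.2, 1258.4 and 1048.7 in IR hearts, against 927.3, 760.4 and 918.3 in sham hearts. The 2 d groups did not overlap, but the log2 change of 0.32 (SE 0.16, adjusted p = 0.275) did not pass the test. The 2 d sham arrays were the lowest of all 12 for Sfrp1, and the 7 d sham arrays were above them by 0.43 (log2, SE 0.16, unadjusted p = 0.019, adjusted p = 0.429). With the 2 d sham arrays as control, the 7 d change of Sfrp1 was 0.51 and was called (adjusted p = 0.0348).

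Dkk3, the Dickkopf family member measured here, did not pass the test at either day. Its signal was 5792.6, 7064.3 and 6925.8 in 7 d IR hearts, against 3818.7, 5656.9 and 2686.1 in 7 d sham hearts. The groups did not overlap, although the highest sham array, replicate 81, was just below the lowest IR array. The log2 change was 0.73 (SE 0.24, limma adjusted p = 0.0577), which did not pass. It was called under 5 of 23 alternatives, with 0.99 (adjusted p = 0.0204) without 7 d sham replicate 81, and it was 0.48 (adjusted p = 0.245) without 7 d sham replicate 82. At 2 days the signal was 3384.2, 4662.8 and 3987.8 in IR hearts, against 5389.1, 2909.8 and 3973.9 in sham hearts, and the change was 0.00 (SE 0.24, adjusted p = 0.996). The dimmer Dkk3 probe set read between 8.0 and 102.4 over the 12 arrays, at or below the percentile of 13.2 on each array, and was not read as a measure of the gene.

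Fzd2, a receptor known to mediate Wnt5a signalling, was the only called receptor. Its signal was 888.7, 1333.5 and 1233.9 in 7 d IR hearts, against 572.7, 587.0 and 540.8 in 7 d sham hearts. The 7 d IR arrays lay above all 9 other arrays, and the 7 d sham arrays lay close together. The log2 change was 0.81 (SE 0.23, limma adjusted p = 0.0362), a 1.75-fold rise, and the ratio of mean signals was 2.03. The call was lost in 8 of 22 alternatives, among them without 7 d IR replicate 47 (0.71, adjusted p = 0.125) or 48 (0.76, adjusted p = 0.0941) and without 7 d sham replicate 80, 81 or 82 (adjusted p = 0.0657, 0.0653 and 0.117), while the direction held. At 2 days Fzd2 read 675.0, 486.8 and 376.6 in IR hearts, against 281.6, 654.3 and 666.7 in sham hearts. These groups overlapped, with a change of -0.01 (SE 0.23, adjusted p = 0.984).

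Fzd1, a close relative of Fzd2 and Fzd7 among the receptors, read 3184.9, 2526.7 and 1886.8 in 7 d IR hearts, against 1826.0, 1710.3 and 1248.4 in 7 d sham hearts. The groups did not overlap, but the lowest 7 d IR array was only just above the highest sham array. The log2 change was 0.59 (SE 0.20, limma adjusted p = 0.0679), and it was called under 1 of 23 alternatives, without 7 d IR replicate 48 (0.78, adjusted p = 0.0357). Without 7 d sham replicate 82 it was 0.45 (adjusted p = 0.254). At 2 days the signal was 1880.4, 2406.6 and 1944.8 in IR hearts, against 2408.4, 1640.8 and 1494.3 in sham hearts, with a change of 0.17 (SE 0.20, adjusted p = 0.678). Neighbouring groups overlapped throughout the order of levels of Fzd1.

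Fzd4, which is also the receptor of the non-Wnt ligand norrin in the growth of retinal vessels, did not pass on either probe set. The brighter one read 1491.0, 1266.0 and 1612.0 in 7 d IR hearts, against 1522.4, 1210.6 and 1131.8 in 7 d sham hearts, with a log2 change of 0.16 (SE 0.15, limma adjusted p = 0.544). The dimmer one read 563.8, 524.6 and 469.9 in 7 d IR hearts, against 324.5, 215.9 and 557.7 in 7 d sham hearts. The sham value of replicate 82 fell among the IR values there, and the change was 0.39 (SE 0.29, adjusted p = 0.406). The 2 d changes were 0.03 (SE 0.15, adjusted p = 0.949) on the brighter and -0.06 (SE 0.29, adjusted p = 0.935) on the dimmer Fzd4 probe set. The dimmer one was above its array's 40th percentile on 3 of 12 arrays only, and the correlation of the pair was 0.10 over the 12 arrays and -0.45 within groups.

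**Figure D2:**
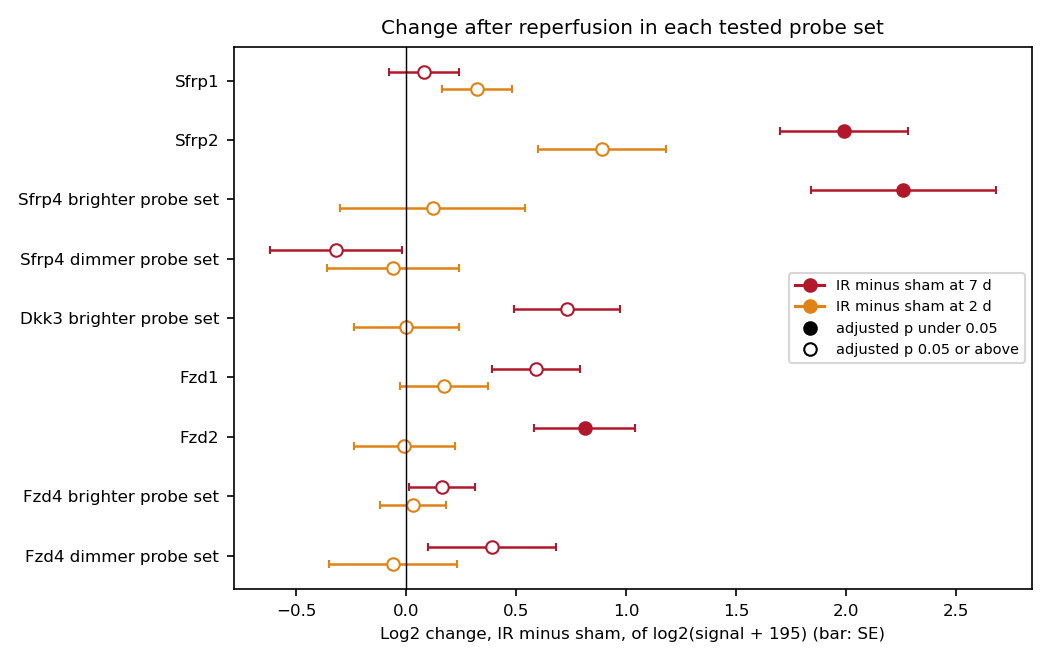
Change, IR minus sham, of the 9 tested probe sets (horizontal axis, log2 of signal + 195; bars are SE), with 7 d above 2 d for each and filled points for an adjusted p under 0.05. At 7 days Sfrp2 (1.99), the brighter Sfrp4 probe set (2.26) and Fzd2 (0.81) passed the test, and at 2 days none did.

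Over the 7 genes, the 7 d IR arrays were all above the 7 d sham arrays for 5 (Sfrp2, Sfrp4, Dkk3, Fzd1 and Fzd2), against 16.9% of all genes. At 2 days this held for 2 genes, Sfrp2 and Sfrp1, against 14.7% of all genes. A gene called at 7 days and not at 2 days is not thereby shown to respond differently, and the difference of the IR effects was tested directly. It was called for none of the 7 genes by limma, and for 0.0130% of all genes. The largest differences (7 d minus 2 d) were 2.14 for the brighter Sfrp4 probe set (SE 0.59, unadjusted p = 0.00271, adjusted p = 0.413), 1.09 for Sfrp2 (SE 0.41, unadjusted p = 0.0174, adjusted p = 0.574), 0.82 for Fzd2 (SE 0.33, unadjusted p = 0.0242, adjusted p = 0.593) and 0.73 for Dkk3 (SE 0.33, unadjusted p = 0.0457, adjusted p = 0.678). Unadjusted p-values under 0.05 were thus found for 4 of the 7 genes, against 7.46% of all genes in that test. Without 7 d sham replicate 82 the difference was 0.67 for Sfrp2 (adjusted p = 0.607) and 0.48 for Dkk3 (adjusted p = 0.761). With 2 d IR replicate 69 left out as well, it was 0.37 for Dkk3 (adjusted p = 0.814) and 0.21 for Fzd1 (adjusted p = 0.893), against 0.42 for Fzd1 on all arrays.

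Between the IR groups, 7 d IR hearts were higher than 2 d IR hearts for the same 3 genes, against 2.62% of all genes called higher. The log2 difference was 2.39 for Sfrp2 (SE 0.29, limma adjusted p = 0.000686), 2.30 for the brighter Sfrp4 probe set (SE 0.42, adjusted p = 0.00619) and 0.93 for Fzd2 (SE 0.23, adjusted p = 0.0382). This comparison shares the 7 d IR arrays with the one against 7 d sham, so that it is not separate evidence. The Fzd2 difference was lost without 7 d IR replicate 47 (0.84, adjusted p = 0.153) or 48 (0.88, adjusted p = 0.116) and without 2 d IR replicate 73 (0.92, adjusted p = 0.12) or 76 (0.79, adjusted p = 0.149). Dkk3 was higher by 0.70 (SE 0.24, adjusted p = 0.132), with all 7 d IR arrays above all 2 d IR arrays. The share of all genes for which this held was not computed.

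The genes whose log2 signal ran most like that of each member over the 12 arrays were found by Pearson correlation among all genes tested. The arrays share their groups, so a high value can come from the group means alone, and the correlation within groups is given too. For Sfrp2 these were Gpx7, a peroxidase of the endoplasmic reticulum (r = 0.982, 0.91 within groups), Col3a1, a fibrillar collagen chain (0.978, 0.94 within groups), and C1qtnf6 (0.975, 0.91 within groups). Each of these rose at 7 days, by 0.80 for Gpx7 (limma adjusted p = 0.00999), 0.74 for Col3a1 (adjusted p = 0.0222) and 0.72 for C1qtnf6 (adjusted p = 0.019). They were picked by their likeness to Sfrp2 on the same arrays, so these rises are not separate evidence. For the brighter Sfrp4 probe set they were Nbl1, a secreted BMP antagonist (0.924, 0.76 within groups), Nucb1, a calcium-binding protein (0.923, 0.82 within groups), and Vkorc1, which recycles vitamin K (0.912, 0.55 within groups). Nbl1 was also the second nearest gene of Dkk3 (0.861, 0.73 within groups), between Tril (0.881, 0.85 within groups) and Cabin1 (0.858, 0.69 within groups).

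The genes nearest to Fzd2 were Zfyve26 (0.896, 0.74 within groups), Sash1 (0.883, 0.61 within groups) and Snrpb (0.882, 0.65 within groups). Those of Fzd1 were Wbp1l (0.857, 0.72 within groups), A3galt2 (0.831, 0.73 within groups) and Nos2, the inducible nitric oxide synthase (0.826, 0.76 within groups). For Sfrp1 the nearest were Atp10d (0.922, 0.89 within groups), Usp37 (0.909, 0.86 within groups) and Supt5h (0.88, 0.83 within groups), none of which was called at either day. The brighter Fzd4 probe set was nearest to Ttc13 (0.916, 0.92 within groups), Sos2 (0.882, 0.93 within groups) and Lrp6, the Wnt coreceptor (0.87 over all arrays and 0.94 within groups).

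Markers of several cell types moved with the IR groups, and in bulk tissue fewer cells of a type and less RNA per cell cannot be told apart. Of 13 fibroblast markers, all tested, 8 rose and 0 fell at 7 days, against 6.40% and 6.57% of all genes. Their 7 d changes lay between 0.17 and 1.43, with a median of 1.25. At 2 days 0 were called, against 2.62% of all genes. Between the IR groups 10 of the 13 were called higher in 7 d IR than in 2 d IR hearts, against 2.62% of all genes. The median difference of the markers was 1.27. Their summed signal was 218524 to 282985 in 7 d IR hearts, against 97070 to 171663 in 7 d sham hearts, and 96845 to 113334 in 2 d IR hearts, against 80385 to 89784 in 2 d sham hearts. Col1a1, a chain of collagen I, changed by 1.25 (SE 0.33, limma adjusted p = 0.0248), whereas Dcn by 0.17 (adjusted p = 0.287) and Pdgfra by 0.42 (adjusted p = 0.213) did not pass. The part of fibroblast content in the members' changes was not tested.

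The mean log2 signal of these 13 markers was subtracted from that of each member on the same array. On this scale Sfrp2 stood at 0.02 to 0.37 in 7 d IR hearts, against -1.16 to -0.52 in 7 d sham hearts. The brighter Sfrp4 probe set stood at -2.57 to -0.78 in 7 d IR hearts, against -3.24 to -2.94 in 7 d sham hearts. For both, the 7 d groups did not overlap on this scale, and the share of all genes for which this held was not computed. The marker mean itself was higher in 7 d IR hearts (13.14 to 13.41) than in 7 d sham hearts (11.79 to 12.67). A probe set with little change must therefore stand lower in 7 d IR hearts on this scale. Some probe sets did so without overlap, and no conclusion is drawn from it. These were Sfrp1 (-2.88 to -2.51, against -2.26 to -1.49) and the brighter Fzd4 probe set (-2.85 to -2.32, against -2.22 to -1.41). The dimmer Sfrp4 probe set did so too (-5.08 to -3.55, against -3.31 to -2.27). Fzd2 stood at -3.33 to -2.66 in 7 d IR hearts, against -3.07 to -2.26 in 7 d sham hearts, and Fzd1 at -2.12 to -1.69 against -1.78 to -1.29. For these receptors the 7 d groups overlapped. Dkk3 stood at -0.87 to -0.34 in 7 d IR hearts, against -0.68 to -0.16 in 7 d sham hearts, and overlapped likewise. The correlation with the marker mean over 12 arrays was 0.98 for Sfrp2 (0.85 within groups), 0.82 for the brighter Sfrp4 probe set (0.26 within groups) and 0.74 for Fzd2 (0.00 within groups). Among the members not called, it was 0.74 for Dkk3 (0.52 within groups), 0.72 for Sfrp1 (0.46), 0.63 for the brighter Fzd4 probe set (0.31) and 0.56 for Fzd1 (0.52). With the mean of the 10 macrophage and monocyte markers tested it was 0.72 for Sfrp2 (0.80 within groups), 0.53 for the brighter Sfrp4 probe set (0.02 within groups) and 0.58 for Fzd2 (0.52 within groups). With the mean of 11 cardiomyocyte markers Sfrp2 had a correlation of -0.74 (-0.46 within groups). With the mean of 8 endothelial markers its correlation was 0.71 (0.03 within groups), and with 9 smooth muscle and pericyte markers 0.66 (0.30 within groups).

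**Figure D3:**
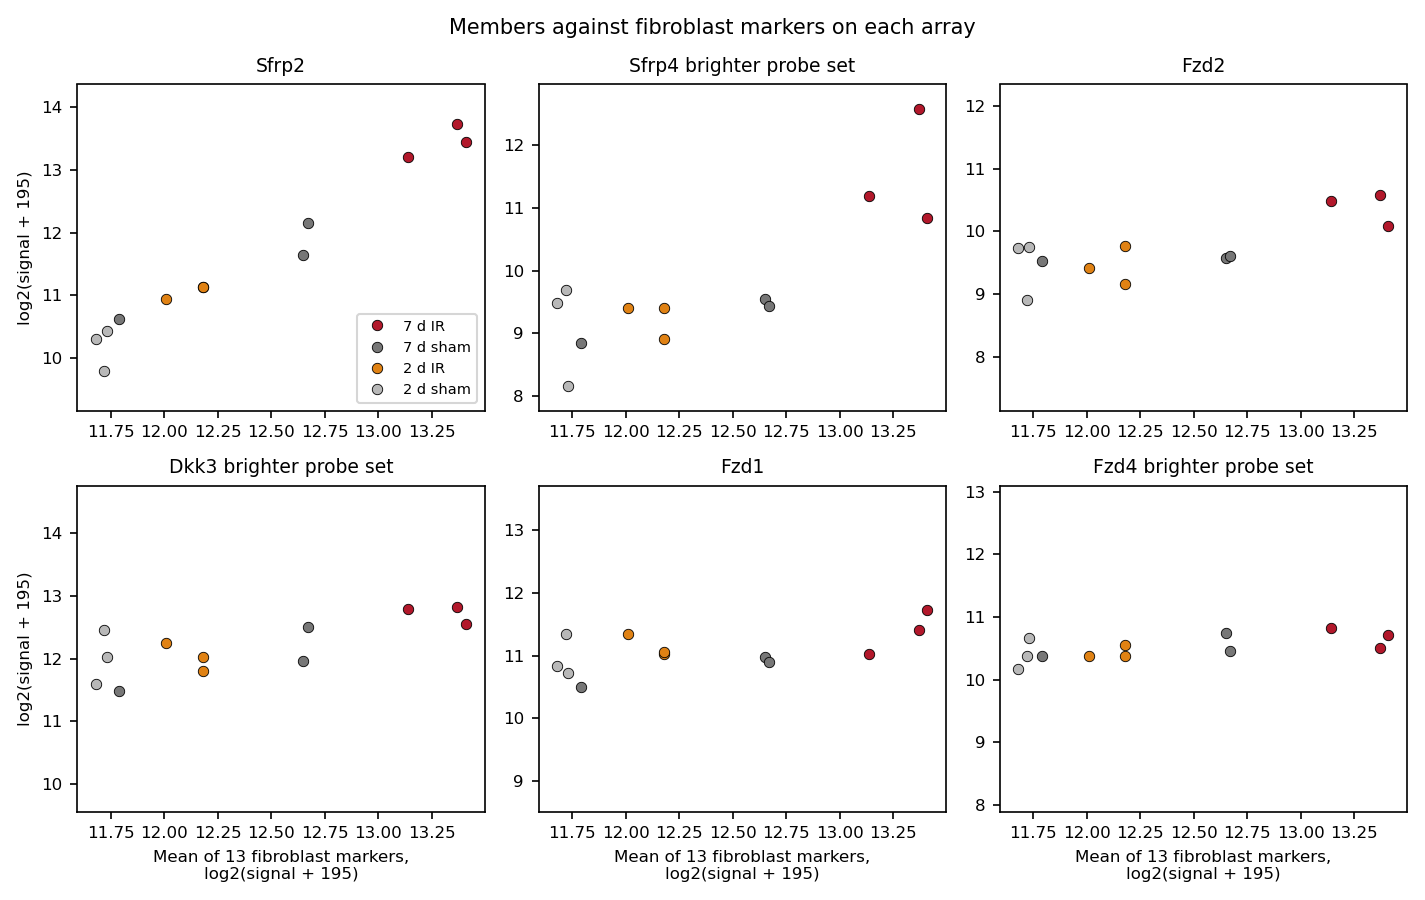
Log2 signal of 6 probe sets (vertical axis, log2 of signal + 195) against the mean log2 signal of 13 fibroblast markers (horizontal axis), one point per array, coloured by group. Sfrp2 runs along with the marker mean over all 12 arrays (r = 0.98), and for the brighter Sfrp4 probe set the 7 d IR arrays stand above the other 9.

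Markers of other cell types were counted in the same way. Of 12 macrophage and monocyte markers 10 were tested, of which 7 rose at 7 days and 6 at 2 days. The shares of all genes called higher were 6.40% and 1.98%. The macrophage markers had summed signals of 88504 to 97774 in 7 d IR hearts, against 34044 to 60821 in 7 d sham hearts. At 2 days the macrophage sums were 84107 to 129319 in IR hearts, against 36030 to 54461 in sham hearts. Of 11 cardiomyocyte markers, 5 fell at 7 days and 1 at 2 days, where 6.57% and 0.635% of all genes were called lower. The cardiomyocyte sums were 327267 to 366869 in 7 d IR hearts, against 443106 to 510658 in 7 d sham hearts. Smooth muscle and pericyte markers rose in 2 of 9 cases at 7 days and endothelial ones in 1 of 8, against 6.40% of all genes. Lymphocyte, neutrophil and nerve ones rose in 1 case each of 2, 2 and 3 tested. The median 7 d changes of these lists were, in turn, 0.23, 0.11, 0.49, 1.11 and 0.04. A single call in a list this short does not show that the cell type changed. Neither of 2 mesothelial markers was called, and the lymphocyte markers Cd3e, Cd3d and Cd79b were too dim to be tested. Atrial markers fell in 2 of 5 cases at 7 days, with sums of 25605 to 50105 in 7 d IR hearts, against 42725 to 56288 in 7 d sham hearts. Myl7, the atrial light chain, averaged 1554 ± 1415 in 7 d IR hearts and 5260 ± 3855 in 7 d sham hearts (SD, n = 3 each), with a change of -1.75 (SE 0.50, limma adjusted p = 0.0366). No marker of any list was at 0, and the part of these cell types in the members' changes was not tested.

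Around the 7 members, 119 other Wnt pathway genes were listed by role, of which 68 were on the array with a single symbol and 47 were tested. At 7 days 4 of the 47 rose and 1 fell, against 6.40% of all genes called higher and 6.57% called lower. At 2 days 2 rose and 0 fell, against 1.98% and 0.635% of all genes. The median change was 0.09 at 7 days and 0.04 at 2 days. The 7 d count was 2 without 7 d IR replicate 44 or 47 or without 7 d sham replicate 82, and the 2 d count was 0 in 7 of the 12 fits that left out 1 array.

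Among the ligand genes, 2 of 21 were tested: Wls, which carries Wnts to the cell surface, changed by 0.44 at 7 days (SE 0.16, limma adjusted p = 0.0953), and Wnt2b by -0.10 (adjusted p = 0.749). Wls was higher in 7 d IR than in 2 d IR hearts, by 0.71 (SE 0.16, adjusted p = 0.0258). Wnt4, Wnt5a, Wnt5b and Wnt6 were on the array but too dim to be tested.

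Of the other secreted modulators, 2 of 18 were tested. Frzb, also known as Sfrp3, changed by 0.36 at 7 days (SE 0.20, limma adjusted p = 0.249), and its other probe set by 0.02. Sostdc1, an antagonist of BMPs and Wnts, changed by -0.37 (SE 0.25, adjusted p = 0.36). Frzb was higher in 7 d IR than in 2 d IR hearts, by 0.80 (SE 0.20, adjusted p = 0.0387).

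None of 7 other receptors and coreceptors tested was called. The most changed were Ptk7, a pseudokinase coreceptor (0.87 at 7 days, SE 0.29, limma adjusted p = 0.0621), and Lgr4, a receptor for R-spondins (0.44, SE 0.23, adjusted p = 0.225). Lrp6, the coreceptor named above as a neighbour of Fzd4, changed by 0.18 at 7 days (adjusted p = 0.55).

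Of 22 signal transduction genes, Prickle2, a planar polarity protein, rose at 7 days by 1.17 (SE 0.28, limma adjusted p = 0.0177), while its other probe set changed by 0.22. Csnk2a1, a catalytic subunit of casein kinase 2, fell by 0.48 (SE 0.13, adjusted p = 0.0254), and its other probe sets changed by -0.44 and 0.02. Ctnnb1, which encodes beta-catenin, changed by -0.03 (adjusted p = 0.909), and its other probe sets by 0.48 and 0.01. Axin1, the scaffold of the complex that degrades beta-catenin, changed by 0.45 (adjusted p = 0.153), and the corepressor Tle2 by -0.35 (adjusted p = 0.13).

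Of 14 genes known as Wnt targets in other systems, 3 rose at 7 days, against 6.40% of all genes. These were Ccn5, a matricellular protein (1.71, SE 0.26, limma adjusted p = 0.0038), Mmp14, a membrane-bound metalloproteinase (1.39, SE 0.31, adjusted p = 0.0131), and Cd44, a hyaluronan receptor (0.85, SE 0.21, adjusted p = 0.0222). The other Cd44 probe set changed by 0.56. At 2 days Mmp14 (1.24, SE 0.31, adjusted p = 0.0473) and Fn1, fibronectin (1.39, SE 0.33, adjusted p = 0.0433), rose, against 1.98% of all genes. Ccn5 did not (-0.03, adjusted p = 0.966). In 7 d IR hearts Ccn5 was higher than in 2 d IR hearts by 2.04 (SE 0.26, adjusted p = 0.000839), and Mmp14 by 1.80 (SE 0.31, adjusted p = 0.00432). Plaur, the urokinase receptor, changed by 0.55 at 7 days (adjusted p = 0.435) and Vcan, a proteoglycan, by 0.51 (adjusted p = 0.277). Axin2, a widely used readout of beta-catenin signalling, was too dim to be tested, and these targets are also induced by other pathways.

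**Figure D4:**
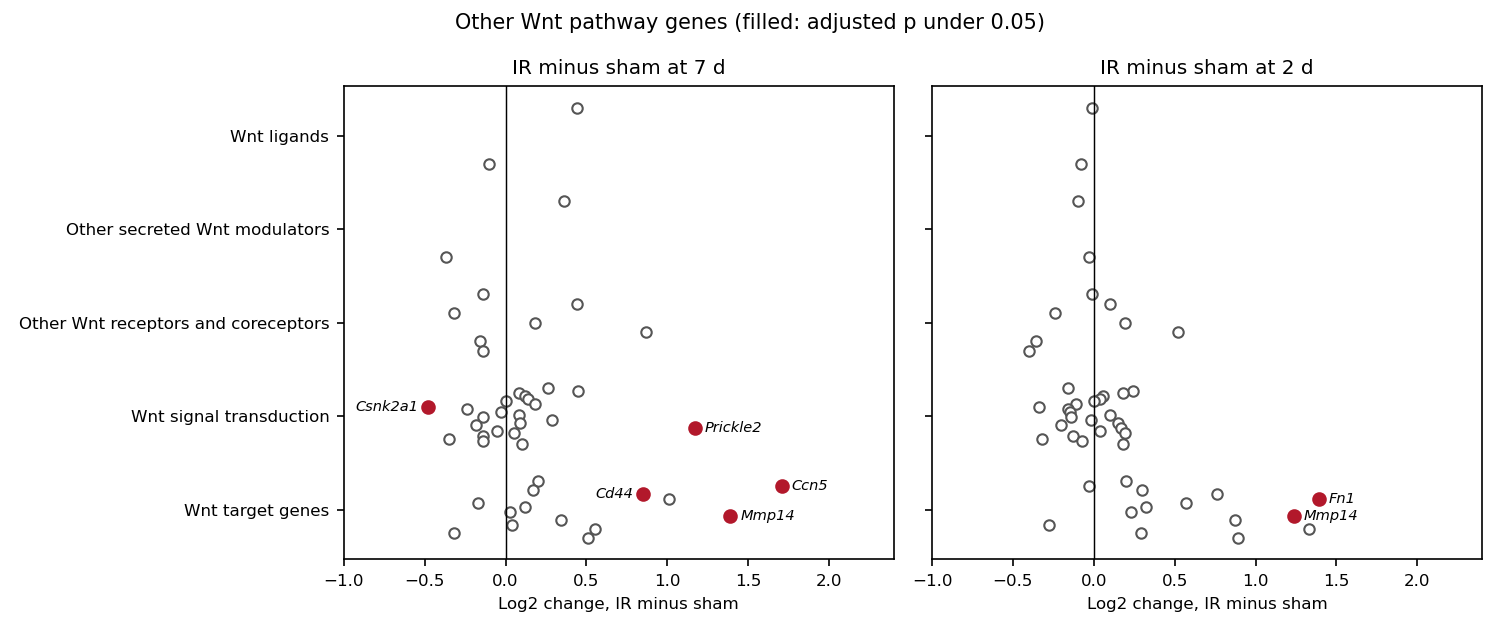
Log2 change, IR minus sham (horizontal axis) of the 47 other Wnt pathway genes tested, by role (vertical axis), at 7 days in the left panel and at 2 days in the right one; filled points passed the test. Ccn5, Mmp14, Cd44 and Prickle2 rose and Csnk2a1 fell at 7 days, and Mmp14 and Fn1 rose at 2 days.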

How the data were processed

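The authors deposited 1 linear intensity per probe set and array for 12 arrays of biotin-labelled total RNA, made with MAS5 per the submitters' processing notes. Each array's trimmed mean (2% off each end) was 1500.4 to 1500.5, so no further scaling was applied. Gene names came from the platform annotation: 12789 probe sets had 1 symbol, 312 several and 2822 none. Of those with 1 symbol, 12754 matched RefSeq GRCr8 and 0 symbols were updated.

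From the intensities, log2(signal + 195) was computed, where 195 is the median over arrays of the 20th percentile. Leaving out 57 control probe sets, a probe set was kept if 3 or more arrays had it above their 40th percentile (10527). A mean per group was estimated from the 12 arrays together in limma 3.58.1 (R 4.3.3; eBayes with intensity trend) and 5 contrasts were tested, with Benjamini-Hochberg adjustment over the 10527. A gene's brightest tested probe set stood for it. The scripts were tested on simulated data. The number of arrays limits the precision.

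The members and gene lists were chosen with earlier results of these data known. The text names every member and its 3 nearest genes, every called gene of the Wnt lists with up to 2 further genes by change at 7 days per list, and the first markers of the cell type lists. Groups came from sample titles; the written design lists 7 d sham in 2 places and 2 d sham in none. Replicate numbers of the 7 d IR arrays (44, 47 and 48) lie apart from the others (69 to 82). Those of the 7 d sham arrays (80, 81 and 82) form a block too, while those of the 2 d groups (69 to 76) interleave. What the numbers mean is not given in the sources used here, and no batch was fitted. Batch and group cannot be told apart for the 7 d IR arrays or for the 7 d sham arrays. Alternatives changed the offset, scaling, filter, trend, arrays in the fit, array weights, control group and probe set, and left out each array in turn.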

Additional observations from a re-analysis of the deposited data

How the results depend on the processing

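No paired analysis was possible because the groups share no replicate numbers. The changes of Sfrp2 and of the brighter Sfrp4 probe set at 7 days, and their 7 d IR against 2 d IR differences, kept their call in each alternative run. Leaving out 2 d IR replicate 69 and 7 d sham replicate 82 together was chosen after seeing the data. With them out, 550 probe sets were called at 7 days (1270 in all arrays), 73 at 2 days (260) and 1 member probe set between the sham groups (0), and 2 Wnt pathway genes at 7 days (5). The Dkk3 sham difference became 0.22, Fzd4 (brighter) at 2 days -0.04, Sfrp1 at 7 days -0.01 and Sfrp4 (dimmer) between the IR groups 0.06. With array weights 1 member was called between the sham groups, and Dkk3 there became 0.09, Fzd4 at 2 days -0.005 (brighter) and 0.07 (dimmer), and Sfrp4 (dimmer) at 2 days 0.01. At 2 days median centring gave Dkk3 -0.05 and Fzd4 (brighter) -0.03, quantile normalization -0.002 and -0.04 with 1 Wnt pathway gene called, and an offset of 16 gave Fzd2 0.0008. With no filter 77 probe sets and 0 Wnt pathway genes were called at 2 days, and with no intensity trend 68 and 0. With only the arrays compared, 4 Wnt pathway genes and 1 member were called at 2 days. With the other day's sham as control, 2505 probe sets, 12 Wnt pathway genes and 5 member probe sets were called at 7 days, and 75 probe sets and 0 Wnt pathway genes at 2 days, where Fzd4 (brighter) was -0.10, Sfrp1 -0.11, Sfrp2 -0.40 and Sfrp4 (brighter) -0.04. The causes were not tested.

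Leaving out 1 array gave 178 to 1462 probe sets called at 7 days (178 without 7 d sham replicate 82) and 2 to 521 at 2 days (2 without 2 d IR replicate 69), 2 to 7 and 0 to 5 Wnt pathway genes, and 0 to 1 members both at 2 days and between the sham groups. At 7 days it gave Sfrp1 -0.06 to 0.23 and Sfrp4 (dimmer) -0.56 to 0.07. At 2 days it gave Fzd4 -0.22 to 0.25 (dimmer, over 9 of the 12 fits) and -0.09 to 0.16 (brighter), Sfrp4 -0.23 to 0.12 (dimmer) and -0.35 to 0.41 (brighter), Fzd2 -0.29 to 0.13 and Dkk3 -0.21 to 0.21. Between the sham groups it gave Fzd1 -0.30 to 0.01, Fzd2 -0.17 to 0.26, Sfrp4 (brighter) -0.31 to 0.45 and Dkk3 -0.29 to 0.22. Sfrp4 (dimmer) ranged from -0.26 to 0.37 between the IR groups, and the difference of the IR effects from -0.50 to 0.13 for it and from -0.002 to 0.25 for Fzd4 (brighter). Signals near background limit the dimmer probe sets of Sfrp4, Fzd4 and Dkk3. The Fzd2, dimmer Sfrp4 and dimmer Fzd4 probe sets were not tested with the filter at the 60th percentile, and the dimmer Fzd4 probe set could not be fitted without 7 d IR replicate 44 or 47 or 7 d sham replicate 82, where it missed the filter on dim values.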
